A study of Mus musculus with 2 samples.

Results

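The proteasome genes examined here are the 51 protein-coding mouse genes, of 21887 in the RefSeq table of the GRCm38.p6 assembly, whose symbols start with Psma, Psmb, Psmc, Psmd, Psme, Psmf or Psmg. The rule uses symbols and no measured value, although the family was picked with earlier results of these data known. The genes were followed across 2 maps of YY1 in mature adipocytes. YY1 is a zinc finger protein that binds DNA and can raise or lower transcription. Collagenase released the adipocytes from iWAT, the inguinal depot of subcutaneous fat, of C57 mice that were male, wild type and 8 to 10 weeks old. The baseline library stems from animals housed at room temperature and the other one from animals after 7 days of cold stress, with 1 library per condition and no statement of how many animals were pooled. The sample titles name ChIP-seq, but the protocol is that of CUT&Tag, where a transposase held by the antibody cuts the DNA beside the bound protein in unfixed nuclei.

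The proteasome is the barrel-shaped protease that degrades ubiquitin-tagged proteins. Its core particle stacks outer alpha rings and inner beta rings, and the beta rings carry the proteolytic sites. The regulatory particle on the barrel's end has a base of ATPases that unfolds substrates and a lid that removes ubiquitin. Other activators can replace this particle, and immune stimuli exchange the catalytic beta subunits for the immunoproteasome forms Psmb8, Psmb9 and Psmb10. In brown fat, proteasome activity driven by the transcription factor Nfe2l1 is known to be needed for adaptation to cold.

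Of the 51 genes, 43 had an entry in the RefSeq promoter table (GRCm38.p6, 250 bases before to 50 bases after the start). Psma8, Psmb1, Psmb2, Psmb7, Psmc3, Psmd3, Psmd7 and Psmg2 had none. Psmb5, which encodes the catalytic subunit with chymotrypsin-like activity, carried the highest YY1 pileup of the family. Its promoter is shown because both of its matches to the core of the known YY1 site, ATGGCG, lie inside the cold peak. The capitals mark those matches, and the sequence runs 5′ to 3′ on the minus strand of chr14:54617946-54618245.
Psmb5 promoter: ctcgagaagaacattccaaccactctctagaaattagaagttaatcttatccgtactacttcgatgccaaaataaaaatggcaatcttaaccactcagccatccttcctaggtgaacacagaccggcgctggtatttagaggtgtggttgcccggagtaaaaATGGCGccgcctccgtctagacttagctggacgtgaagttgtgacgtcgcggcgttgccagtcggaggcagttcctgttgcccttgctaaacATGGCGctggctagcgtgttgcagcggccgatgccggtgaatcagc

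The other promoters of bound proteasome genes that hold ATGGCG are shown around the match, so that the flanks can be compared with the longer form of the site, which adds AAN before the core and NC after it. Each stretch reads 5′ to 3′ on the strand that spells ATGGCG, in capitals, with up to 20 bases on either side within the promoter window. For Psmd8 this is the strand opposite to the gene, and for the other genes it is the gene's own strand.
Psmb6 (chr11:70525377-70525406, plus strand): tggcagagtagcagaggaagATGGCGgccg
Psmc5 (chr11:106256171-106256216, plus strand): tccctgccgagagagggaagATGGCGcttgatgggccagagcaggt
Psmc6 (chr14:45329828-45329873, plus strand): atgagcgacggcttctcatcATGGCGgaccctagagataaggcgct
Psmd1 (chr1:86064369-86064409, plus strand): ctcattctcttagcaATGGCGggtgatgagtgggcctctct
Psmd11 (chr11:80428455-80428500, plus strand): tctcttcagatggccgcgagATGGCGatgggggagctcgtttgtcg
Psmd8 (chr7:29180656-29180701, plus strand): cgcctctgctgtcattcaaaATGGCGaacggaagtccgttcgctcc

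A gene was counted as bound where a listed summit, the highest point of a peak, lay inside it or within 1 kb of either end. An end is either boundary of the gene, so it can be the start. The authors listed 165 summits at room temperature and 1259 after cold. YY1 was listed at 3 of the 51 proteasome genes at room temperature (5.88%, exact 95% binomial interval 1.23 to 16.2), where 0.864% of all protein-coding genes had a summit. After cold it was listed at 11 of the 51 (21.6%, 11.3 to 35.3), where 6.42% of all protein-coding genes had one. The 3 genes at room temperature, Psmb1, Psmb5 and Psmc5, were also listed after cold, so the overlap was 100% of the room temperature members and 27.3% of the cold members. Over all protein-coding genes 186 were listed in both libraries (0.85%), which is 98.4% of the 189 room temperature genes and 13.2% of the 1406 cold genes. The lower limit of the family's interval lay above the share of all protein-coding genes in each library. Since the family was picked with results known, this is a description and not a test, and genes are not replicates of a condition.

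The higher cold count goes with the longer cold list. Among the 165 strongest cold peaks by −log10 q, which reached 198 protein-coding genes (0.905%), only Psmb5 remained of the 51 proteasome genes, against 3 genes in the room temperature list of the same length. With 1 library per condition there is no replicate spread, so no test between the conditions was possible and no p-value is given. The number in the peak names is 30 at room temperature and 4 after cold. Its meaning is not stated, and if it were the housing temperature in °C, the baseline would be warmer than its label says.

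The bound genes fell in the alpha ring and the constitutive beta ring of the core, the base and the lid. Together these hold 32 genes, and 11 of them were bound after cold (34.4%, 18.6 to 53.2) and 3 at room temperature (9.38%, 1.98 to 25). The other 19 genes, which are the immunoproteasome, thymoproteasome, assembly chaperone, activator, inhibitor and interacting protein genes, had 0 bound in both libraries, with an interval that reached 17.6%. This limit lies below the interval of the 32 subunit genes after cold and above the 6.42% of all protein-coding genes, so the count of 0 does not place the 19 genes below other genes. The subgroups were pooled in this way after their counts were seen.

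**Figure D1:**
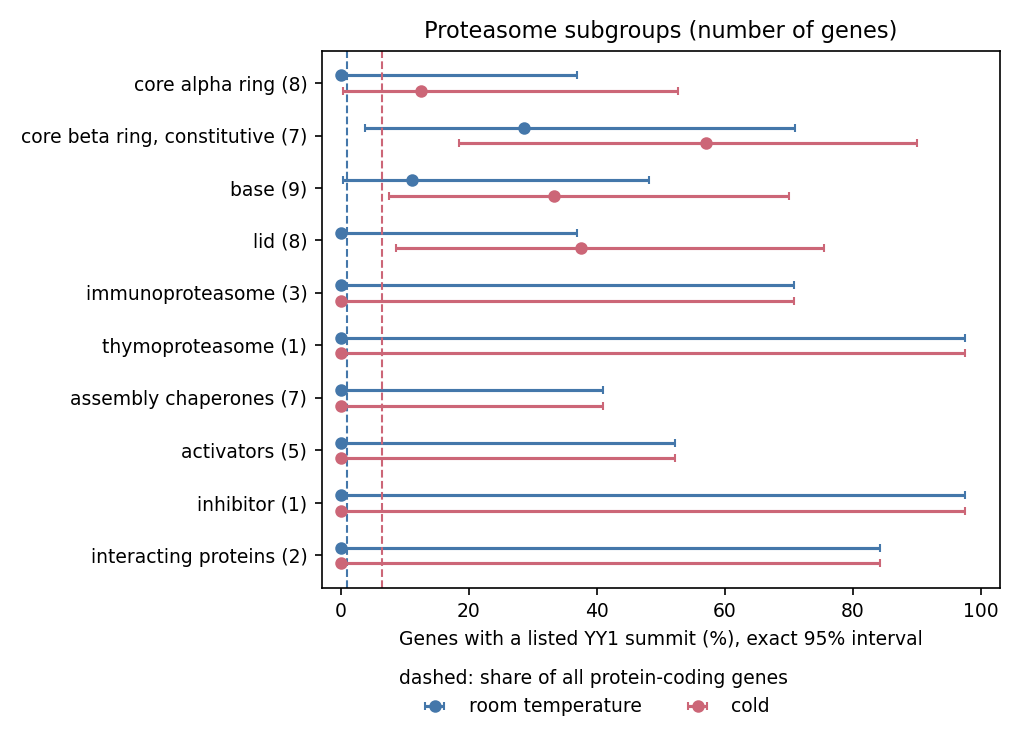
Share of genes with a listed YY1 summit (percent, horizontal axis) in each proteasome subgroup, with its number of genes in brackets. Points are the shares in the room temperature library (blue) and the cold library (red), bars are exact 95% binomial intervals, and dashed lines mark the share of all protein-coding genes, 0.864% and 6.42%. After cold the points of the alpha ring, the constitutive beta ring, the base and the lid lie to the right of the red dashed line, with the lower limit of the alpha ring to its left, and 6 subgroups have no bound gene.

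The constitutive beta ring had the most bound members, 4 of 7 after cold (57.1%, 18.4 to 90.1) and 2 of 7 at room temperature (28.6%, 3.67 to 71). All 3 genes of its catalytic subunits were bound after cold (100%, 29.2 to 100). They are Psmb5, Psmb6, whose product has caspase-like activity, and Psmb7, whose product has trypsin-like activity. Among the 4 non-catalytic genes Psmb1 was bound in both libraries (25%, 0.631 to 80.6), and Psmb2, Psmb3 and Psmb4 in neither. The catalytic and non-catalytic intervals after cold overlap, so these genes are not set apart. The alpha ring, which gates the entry to the barrel, had 1 of 8 genes bound after cold (12.5%, 0.316 to 52.7), namely Psma2. The intervals of the rings overlap, so 4 of 7 and 1 of 8 are not set apart at these numbers. Psma1, Psma3, Psma4, Psma5, Psma6, Psma7 and Psma8 had no listed summit.

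At Psmb5 the room temperature summit carried 27 fragments (exact 95% Poisson interval 17.8 to 39.3) and the cold summit 122 (101 to 146). These pileups were recovered from the deposited fold enrichment and p-value of each peak, since the lists hold no counts. The cold peak ranked 7 of 1259 by −log10 q and the room temperature peak 49 of 165. The Poisson and binomial intervals, here and for the other genes and ratios, cover counting error within 1 library only, and fragments can include PCR copies. Both summits lay at almost the same place, 134 bp and 135 bp upstream of the gene's start. The cold interval (mm10 chromosome 14, 54617703 to 54618453) spanned 751 bp and the room temperature interval 421 bp.

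The pileup at Psmb1, which encodes a structural beta subunit, was 15 at room temperature (8.39 to 24.7) and stood at 33 in the cold library (22.7 to 46.3). Its room temperature summit lay 23 bp outside the gene's higher-coordinate end and its cold summit 37 bp inside that end (chromosome 17, 15498054 to 15498437 after cold). Psmb7 carried 26 fragments after cold (17, to 38.1) at a summit 97 bp inside its higher-coordinate end (chromosome 2, 38643552 to 38644039). Psmb6 carried 20 fragments after cold (12.2 to 30.9) at a summit 86 bp downstream of its listed start (chromosome 11, 70525284 to 70525560). Psmb6 and Psmb7 had no entry at room temperature. A missing entry is not a measured 0, since the lowest listed pileup there was 6 fragments and weaker sites were not recorded.

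Psma2 had the lowest cold pileup of the 11 bound genes, 10 fragments (4.8, to 18.4), with a summit 95 bp downstream of its start (chromosome 13, 14613219 to 14613478). The same summit lay 300 bp from an end of Mrpl32, a mitochondrial ribosomal protein gene, so the peak can be counted for either gene.

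**Figure D2:**
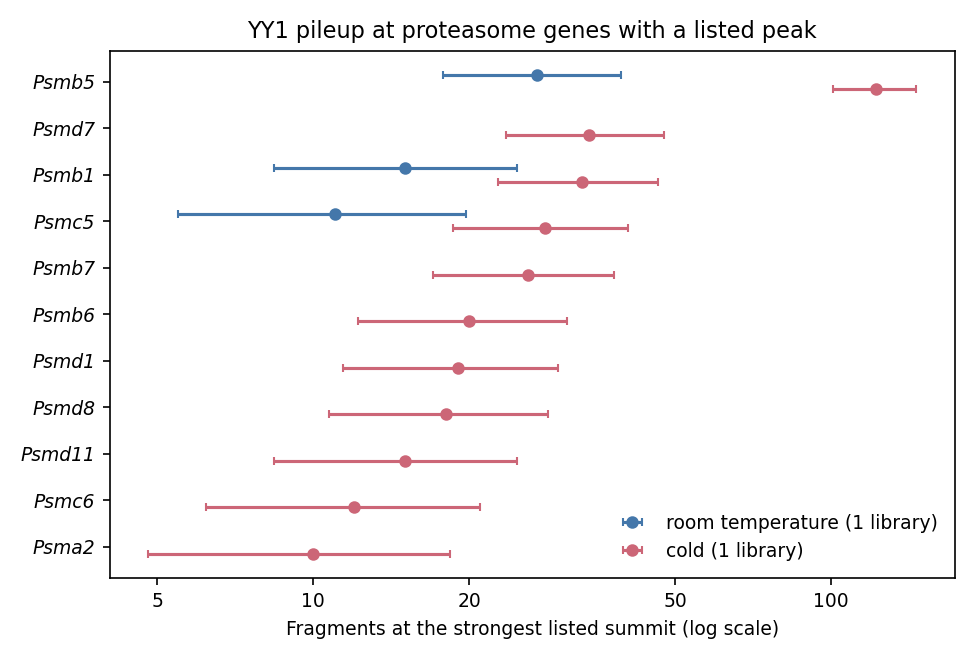
Fragments at the strongest listed summit of each bound proteasome gene (horizontal axis, log scale) in the room temperature library (blue) and the cold library (red), with exact 95% Poisson intervals as bars. Psmb5 stands at 122 fragments after cold, and the other 10 genes lie between 10 and 34. A gene without a blue point has no room temperature entry.

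In the base, 3 of 9 genes were bound after cold (33.3%, 7.49 to 70.1) and 1 at room temperature. Among the ATPase genes, Psmc5 and Psmc6 were bound and Psmc1, Psmc2, Psmc3 and Psmc4 were not. Psmc5 carried 11 fragments in the room temperature library (5.49 to 19.7) and 28 at the stronger of its 2 cold summits (18.6 to 40.5). These summits lay 241 bp and 264 bp upstream of the gene's start, nearer to an end of the neighbouring rRNA methyltransferase gene Ftsj3, at 140 bp and 163 bp. The second cold summit, with 13 fragments (6.92 to 22.2), lay on the other side of the start, 66 bp downstream, and belonged to the same interval of 633 bp (chromosome 11, 106255764 to 106256396). When each summit was given only to the nearest protein-coding gene end, Psmc5 stayed bound after cold through this second summit and was no longer counted at room temperature.

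Psmc6 carried 12 fragments after cold (6.2, to 21) at a summit 111 bp downstream of its start (chromosome 14, 45329814 to 45330100). Psmd1, the large scaffold subunit of the base, carried 19 fragments (11.4 to 29.7) at a summit 206 bp upstream of its start (chromosome 1, 86064292 to 86064558). The ubiquitin receptor gene Psmd4 and the scaffold gene Psmd2 had no listed summit.

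In the lid, 3 of 8 genes were bound after cold (37.5%, 8.52 to 75.5) and 0 at room temperature, where the interval reached 36.9%. Psmd7, whose product pairs with the deubiquitinase Psmd14, had the second-highest cold pileup of the family, 34 fragments (23.5 to 47.5). The summit lay 33 bp outside the gene's higher-coordinate end (chromosome 8, 107588387 to 107588657). That pileup was as high as the 33 fragments of Psmb1, which was listed in both libraries, yet Psmd7 had no room temperature entry. Psmd8 carried 18 fragments (10.7 to 28.4), 175 bp downstream of its start (chromosome 7, 29180305 to 29180775). Psmd11, which helps to clamp the lid to the core, carried 15 (8.39 to 24.7), 100 bp downstream of its start (chromosome 11, 80428566 to 80428920). The deubiquitinase gene Psmd14 itself and Psmd3, Psmd6, Psmd12 and Psmd13 had no listed summit.

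None of the 3 immunoproteasome genes Psmb8, Psmb9 and Psmb10 was bound in either library, nor was the thymus-specific Psmb11. Psmb11 lies on the same chromosome as Psmb5, and its nearer end was 7181 bp from the cold Psmb5 summit. The activator genes Psme1, Psme2, Psme2b, Psme3 and Psme4, the inhibitor gene Psmf1, and the assembly chaperone genes Psmd5, Psmd9, Psmd10, Psmg1, Psmg2, Psmg3 and Psmg4 had no listed summit. The same held for Psmc3ip and Psme3ip1, which match the symbol rule but encode interacting proteins. With 0 of 3, 0 of 5 and 0 of 7, the intervals of the immunoproteasome, activator and chaperone genes reached 70.8%, 52.2% and 41%, so these groups are too small to be set apart from the core, base or lid.

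No gene stood near the 1 kb limit of the rule. The bound summits lay 33 to 264 bp from a gene end after cold, with a median of 106 bp, and the nearest unbound gene was Psmb3, 4149 bp from a cold summit. Of the 12 cold summits at proteasome genes 8 lay on the inner side of the gene end. In the 8 bound genes with a listed start, the strongest cold summit lay within 300 bp of that start in all 8. Over the whole cold list, 864 of the 1168 protein-coding genes with a peak and a listed start did (74%). The 6 proteasome pseudogenes of the gene table had 0 listed summits in both libraries.

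The cold pileups of the family covered much the same range as those of other genes. The strongest cold summit per bound gene had a median of 20 fragments (quartiles 16.5 and 30.5) in the family and 21 (15 and 30) over every bound protein-coding gene. The 8 genes listed only after cold had pileups of 10 to 34 fragments with a median of 18.5, against a median of 20 over all 1220 genes listed only after cold. The 3 genes listed in both libraries had 28, 33 and 122 after cold.

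At these 3 genes the cold pileup was the higher one each time. The ratio of cold to room temperature fragments was 4.52 at Psmb5 (exact 95% interval 2.96 to 7.13), 2.55 at Psmc5 (1.23 to 5.67) and 2.2 at Psmb1 (1.16 to 4.36). Over all 154 shared peaks whose background did not exceed 10 fragments, the median ratio was 3.31 (quartiles 2.63 and 4.18), so Psmb5 ranked 28 and Psmc5 and Psmb1 ranked 119 and 138. The intervals of the 3 genes overlap one another and include the overall median. The local background at Psmb5 went from 3.55 to 1.99 fragments between the room temperature and the cold library, and at Psmc5 it went from 0.537 to 1.33. The ratio of the authors' fold enrichments was therefore 6.69 at Psmb5, 1.6 at Psmc5 and 2.7 at Psmb1, and the order of the 2 weaker genes turned. On that scale the median of the 154 shared peaks was 2.66, and Psmb5 ranked 6, Psmb1 ranked 74 and Psmc5 ranked 134. The background floors put the cold library at 1.05 times the depth of the room temperature library, and scaled by this the ratios were 4.31, 2.43 and 2.1 at Psmb5, Psmc5 and Psmb1.

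**Figure D3:**
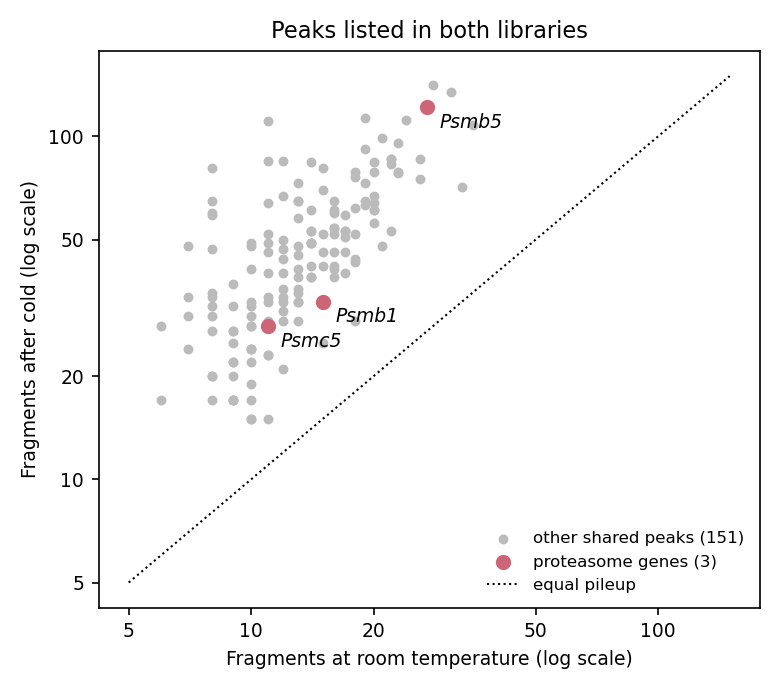
Fragments at peaks listed in both libraries, room temperature on the horizontal and cold on the vertical axis, both on log scales, for the 154 peaks whose background did not exceed 10 fragments. Red points are the proteasome genes, with 27 and 122 fragments at Psmb5, 15 and 33 at Psmb1, and 11 and 28 at Psmc5, all above the dotted line of equal pileup, as are the grey points of the other 151 peaks.

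The promoters of the bound genes were searched for the YY1 core ATGGCG and for the longer form with AAN before it and NC after it, on both strands. The longer form contains the core. Of the 8 genes bound after cold that had a promoter entry, 7 held ATGGCG, all but Psma2, and 4 of the 35 unbound genes with an entry did. Over all protein-coding genes with an entry, 547 of 1168 with a cold peak held it and 1622 of 16324 without a peak (46.8% and 9.94%, with 12.4% of all 17492). The longer form was found in Psmb5 and Psmb6 and in 0 of the 35 unbound genes. The 2 of 8 bound genes (25%) stand beside 272 of the 1168 protein-coding genes with a cold peak (23.3%) and 2.4% of all promoters. As a check of a property over the bound set these shares are void, because only 72.7% of the bound genes and 79.9% of all protein-coding genes have an entry, under the 80% asked for. They stand as a description of single genes.

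The Psmb5 promoter printed above held 2 matches, the first beginning 88 bp upstream of the start with all 3 flank letters of the long form, and the second beginning 4 bp downstream with 2 of 3. The centre of the first was 49 bp from the cold summit and that of the second 141 bp. Psmb6 had all 3 flank letters, Psmc5 and Psmd8 had 2, Psmc6 and Psmd11 had 1, and Psmd1 had 0. The distance from the match to the nearest cold summit was 26 bp at Psmd1, 43 bp at Psmb6, 57 bp at Psmc5, 84 bp at Psmc6, 180 bp at Psmd8 and 237 bp at Psmd11. At Psmc5 the nearest summit was the weaker one with 13 fragments, and the one with 28 fragments lay farther away. The median over these 7 genes was 57 bp, and over the 547 genes with a cold peak and a match it was 46 bp. The match was on the gene's own strand in 6 of the 7 bound genes, against 68.2% of the 547.

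The matches at Psmb6, Psmc5 and Psmc6 and the second at Psmb5 lay downstream of the start. ATGGCG also spells a start codon followed by an alanine codon, and whether these matches are the start of the coding sequence was not tested. The window ended 50 bases after the listed start, so the summits of Psma2, Psmb6, Psmc6, Psmd8 and Psmd11 and the second of Psmc5 lay beyond it. The stronger cold summit of Psmc5 lay upstream of the window. The Ftsj3 promoter held 1 match, 112 bp upstream of that gene's start. This is the same stretch of DNA as the Psmc5 match shown above, seen from the neighbouring gene, and adds no further site. The promoter of Mrpl32, next to Psma2, held none.

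The unbound genes with a match were Psmc4 and Psmd13, with 2 each, and Psmd12 and Psmd5, with 1 each. The stretches with the best flanks among them are shown for comparison, again on the strand that spells ATGGCG, and each had 2 of the 3 flank letters.
Psmc4 (chr7:28050259-28050304, minus strand): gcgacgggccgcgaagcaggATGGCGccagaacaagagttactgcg
Psmd5 (chr2:34870913-34870942, minus strand): ggcagacgggagccagggagATGGCGgcgc
In Psmc4 the match began 192 bp upstream of the start and in Psmd5 40 bp downstream. Psmc4 and Psmd5 thus held the same core, with as many flank letters as Psmc5 and Psmd8, and had no listed summit in either library.

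**Figure D4:**
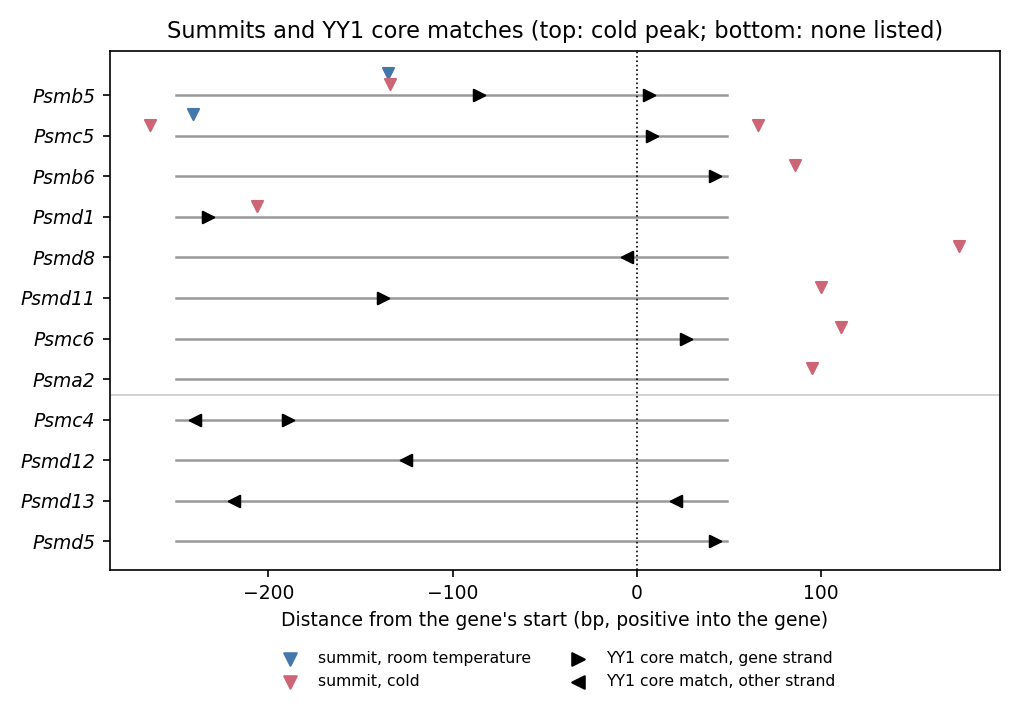
Position of summits (triangles pointing down, blue for room temperature and red for cold) and of ATGGCG matches (black, pointing right on the gene's strand and left on the opposite strand), in bp from the gene's start. Grey lines are the 300 bases searched, the upper 8 genes had a cold peak and the lower 4 had a match and no listed summit. The Psmb5 summits of both libraries sit 134 and 135 bp upstream, and the Psmc5 cold summits lie on both sides of the start.

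Other genes of the pathway were looked up in the same way. Nfe2l1, the transcription factor that raises proteasome gene expression, carried 40 fragments after cold (28.6 to 54.5), more than any proteasome gene except Psmb5. Its summit lay 460 bp from a boundary of the gene (chromosome 11, 96830188 to 96830610), and Nfe2l1 had no room temperature entry. The subunit genes Adrm1 and Sem1, the core maturation factor gene Pomp and the polyubiquitin gene Ubb had no listed summit.

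The lid shares its architecture with the COP9 signalosome, which removes the ubiquitin-like protein Nedd8, and with the translation initiation factor eIF3. After cold 3 of 9 signalosome genes (33.3%, 7.49 to 70.1) and 4 of 14 eIF3 genes (28.6%, 8.39 to 58.1) were bound, next to 3 of 8 lid genes, and the intervals overlap widely. Over all protein-coding genes the share was 6.42% after cold and 0.864% at room temperature. At room temperature the counts were 2 signalosome genes, Cops5 with 10 fragments and Cops6 with 12, and 0 eIF3 and 0 lid genes. Bound only after cold were Cops4 and, of eIF3, Eif3e, Eif3f, Eif3h and Eif3i. The share of bound lid genes was therefore not set apart from either complex.

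None of 8 adipocyte marker genes was bound, with an interval that reached 36.9%. Of 16 marker genes of macrophages, fibroblasts, endothelium and lymphocytes 1 was bound, the endothelial gene Pecam1 after cold with 18 fragments. Together 1 of 24 marker genes was bound after cold (4.17%, 0.105 to 21.1), beside 6.42% of all protein-coding genes. These counts do not set the marker genes apart from other genes. Binding does not measure expression, so the cell type of the label could not be checked with these lists. Background in CUT&Tag includes tagging of open chromatin, and its part in the peaks at the proteasome genes was not tested.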

How the data were processed

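Members and lists were chosen with earlier results of these data known. The submitters' processing notes name the build mm10 and the tools MACS2, BWA, deepTools, SAMtools and DESeq2. Tool settings, the treatment of duplicates and any control library are not stated there. Peaks were called per sample, and for each peak the authors deposited a summit offset, a score, a fold enrichment as linear ratio, and the −log10 of its p-value and of its q-value. Groups follow the labels.

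Pileups were recovered as the whole number k with fold = (k + 1) / (background + 1) and p the Poisson probability of more than k. Every entry fitted to within 0.0002 in −log10 p, and 1 entry had a second whole number within it. On simulated data 165 of 165 and 1259 of 1259 pileups, 200 of 200 planted gene assignments and 200 of 200 planted motifs were recovered. The simulated pileups were made with the same formula and with capped backgrounds. Their recovery checks the arithmetic and not whether the authors' values follow that formula. Absolute depths are unknown. The depth ratio divides the lowest backgrounds (0.537 and 0.57) by the smallest widths (245 and 248 bp), assuming like control scaling. Coordinates are 1-based, mm10 for peaks and GRCm38.p6, the assembly mm10 names, for RefSeq genes and promoters. A position of 0 is the start given by the promoter entry, which can differ from the boundary of the gene. At Psmb6 the cold summit lay 86 bp from this start and 119 bp from the gene's nearer end. Mitochondrial genome genes were left out, and 1 of 26 other pathway genes, Paaf1, was not matched. Peaks were shared where intervals overlapped by 1 bp or more, using the strongest overlapping cold summit. All members with a peak are named, and members without one by subgroup. Of the other pathway genes some are not reported here. Python 3.11.15, pandas 2.3.3 and SciPy 1.17.1 were used.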

Additional observations from a re-analysis of the deposited data

How the results depend on the processing

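With 1 library per condition no library could be left out, and replicate error is unknown. No paired analysis was possible because there are no replicates to pair. Of 50 values under the alternatives, 49 stayed within 1.5 times the reported count, within the quartiles of the median pileup, or within the interval of the median ratio. The exception was the number of proteasome genes bound after cold, 11 with the whole list and 1 (Psmb5) with the 165 strongest cold peaks, a setting that by construction holds fewer peaks. Windows of 500 bp and 3 kb, gene ends only, a −log10 q of at least 3 and interval overlap left 3 and 11 bound genes at room temperature and after cold. These settings had little room to change the counts. Every bound summit lay within 264 bp of an end with a −log10 q of at least 4.81, and the nearest unbound gene lay 4149 bp from a cold summit. The 49 also include subgroup counts of 0 that stayed 0. Giving each summit to its nearest protein-coding gene end left 2 and 11, without Psmc5 at room temperature. The change from 3 to 2 lies at the limit of 1.5 times and is counted among the 49. The median ratio at the 3 shared genes was 2.55, and 2.43 to 2.7 under its alternatives.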
